A study of Mus musculus with 59 samples.

Results

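The 35 genes described here make up a module of the ATF4, integrated and mitochondrial stress response, taken from the count table by their symbols. They are 35 of the 57180 gene rows in the deposited count table, and each symbol matched 1 row. The module holds 8 transcription factors, 3 kinases and 2 phosphatase subunits that act on eIF2 alpha, 7 enzymes of serine, one-carbon and proline synthesis, 3 other enzymes of amino acid and glutathione metabolism, 3 amino acid transporters, 3 stress effectors or inhibitors, 3 secreted factors or receptors, 2 mitochondrial proteases and 1 factor of endoplasmic reticulum (ER) degradation. Poly(A)-selected RNA of cortex and hippocampus was sequenced from male mice that carried the Slc25a1 and Mrpl40 genes intact (wild type, WT), 1 mutant Slc25a1 allele (Slc25a1 het), 1 mutant Mrpl40 allele (Mrpl40 het) or both (double het). Slc25a1 is the citrate carrier of the inner mitochondrial membrane, and Mrpl40 a protein of the large mitochondrial ribosomal subunit. Both genes lie in the region that matches the human 22q11.2 microdeletion, and the series compares the single with the combined heterozygous states. The 59 libraries came from 30 animals: 9 WT, 7 Slc25a1 het, 7 Mrpl40 het and 7 double het cortices, and 8, 7, 7 and 7 hippocampi. The labels give no strain or age and do not say how the mutant alleles were made.

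The integrated stress response begins when a kinase phosphorylates the translation factor eIF2 alpha, which lowers protein synthesis in general while a few messages, ATF4 among them, are translated more. ATF4 is a transcription factor that pairs with C/EBP and other leucine zipper proteins and raises genes for amino acid uptake, serine and one-carbon synthesis, and redox defence. Mitochondrial dysfunction is a known trigger in many cell types, and in neurons ATF4 is also known for roles in plasticity and survival. ATF4 protein depends mainly on translation, so messenger RNA levels such as these report on the pathway indirectly.

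Libraries held 21443017 to 32120906 counted reads. The measured Slc25a1 level divided the libraries into 2 ranges, 10.8 to 13.0 against 20.9 to 26.2 CPM (counts scaled to library size) in cortex, and 6 of the 30 animals (2 WT, 2 Slc25a1 het, 2 double het) lay in the range opposite to their label in both tissues. Mean Mrpl40 levels in cortex were 17.9 CPM in WT and 17.4 CPM in Mrpl40 het libraries, and in hippocampus 15.6 and 15.7 CPM. The means differed by less than the SD between WT libraries (1.52 CPM in cortex and 1.15 CPM in hippocampus). Genotype names below therefore mean the libraries labelled so. The counts of members called and the differences of Atf4 and of the members with the lowest p were also computed without those 6 animals. Interval counts, medians and the results of related lists were not. Of 8 hippocampal identity markers, 7 were higher in every hippocampus than in every cortex library, and 6 of 8 neocortical markers were lower. In 1 hippocampus library, Slc25a1 het replicate 3, the summed level of 8 cerebellar markers was 656 CPM against a median of 27.3 CPM.

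Sequences just upstream of the members were searched for the elements through which these factors act, because ATF4 dimers are known to bind the C/EBP-ATF composite element. RefSeq promoter windows (mouse build GRCm38.p6, 250 bases before to 50 after a start) were found for 33 of the 35 members, in 38 windows; Ppp1r15b and Slc7a5 were not matched. The composite element, searched as TGATGNAA on both strands, was present in 9 of the 38 windows (23.7%), against 1304 of all 32851 windows (3.97%). These windows belonged to 9 members: Asns, Atf3, Chac1, Herpud1, Nupr1, Pycr1, Slc7a11, Trib3 and Vldlr. The members were chosen as genes of the ATF4 response, so the higher share is a description and not independent support for the list. The cAMP response element, TGACGTCA, was present in 1 member window (2.63%) and in 588 of all windows (1.79%), and the ER stress element, CCAAT and CCACG with 9 bases between them, in 0 member windows and 39 of all (0.119%). These motifs do not overlap in the windows shown. A match is a run of letters and not a measured binding site. The stretches below run 5′ to 3′ on the gene's own strand, with the matched element in capitals (2 matches in Slc7a11), and are shown because they belong to members whose levels are described further on.
Asns: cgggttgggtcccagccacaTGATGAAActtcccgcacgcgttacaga
Chac1: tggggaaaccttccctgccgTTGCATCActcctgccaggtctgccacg
Atf3: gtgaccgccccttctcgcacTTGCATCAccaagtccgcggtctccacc
Herpud1: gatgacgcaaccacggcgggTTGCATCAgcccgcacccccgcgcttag
Nupr1: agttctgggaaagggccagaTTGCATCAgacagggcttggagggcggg
Pycr1: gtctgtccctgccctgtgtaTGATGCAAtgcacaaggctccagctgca
Slc7a11: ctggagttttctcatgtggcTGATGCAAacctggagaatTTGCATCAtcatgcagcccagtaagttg
Vldlr: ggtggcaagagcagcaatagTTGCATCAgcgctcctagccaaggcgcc
Ppp1r15a: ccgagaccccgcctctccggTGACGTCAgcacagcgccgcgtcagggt

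The whole window of Chac1, which encodes a glutathione-degrading enzyme, shows how the element sits relative to the start. It lies at chr2:119350992-119351291 on the plus strand, and the element begins 193 bases before the start. The element matches on the minus strand, so it appears as TTGCATCA in the window as printed.
Chac1 window: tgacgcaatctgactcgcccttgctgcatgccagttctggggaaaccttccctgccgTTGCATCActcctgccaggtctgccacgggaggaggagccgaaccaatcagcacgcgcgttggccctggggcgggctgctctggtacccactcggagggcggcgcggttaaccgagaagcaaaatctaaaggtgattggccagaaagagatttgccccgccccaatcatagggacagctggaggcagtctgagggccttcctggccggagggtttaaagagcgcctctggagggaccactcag

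The Asns stretch belongs to the window chr6:7693160-7693459 on the minus strand, where the element begins 23 bases before the start. The Ppp1r15a stretch belongs to the window chr7:45526219-45526518 on the minus strand, and its cAMP response element begins 12 bases before the start. No composite element was found in the windows of Atf4, Atf5 or Mthfd2.

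Expression was high enough to test in 34 of the 35 members in each tissue. Gdf15, a secreted stress hormone, had 0 to 7 reads per library and was not tested. To compare genes with each other, mean CPM in WT cortex was divided by exon length. Atf4 itself was the most abundant member on that scale, at 51.4 CPM per kilobase. It was followed by the asparagine synthetase Asns (31.1), the amino acid transporter heavy chain Slc3a2 (30.4), the mitochondrial protease subunit Clpp (26.2) and the ER stress factor Xbp1 (25.2). The lowest tested members were the pseudokinase Trib3 (0.176), the secreted glycoprotein Stc2 (0.331) and the transcription factors Atf3 (0.404) and Cebpb (0.522), all in CPM per kilobase.

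No member passed the test in any comparison of genotypes, in either tissue. Tests used edgeR's quasi-likelihood F-test across all genes with Benjamini-Hochberg adjustment at 0.05, with all 4 genotypes of a tissue in 1 fit. In cortex, 0 of 34 members passed in Slc25a1 het against WT, where 0% of all tested genes passed, 0 in Mrpl40 het against WT (0.0294% of all genes), and 0 in double het against WT (0.0686%). Between mutants in cortex, 0 members passed in double het against Slc25a1 het (0.0588% of all genes) and 0 in double het against Mrpl40 het (0.0049%). In hippocampus the counts of members were 0 in Slc25a1 het against WT (0% of all genes), 0 in Mrpl40 het (0.00496%) and 0 in double het (0.00992%), and 0 in double het against either single mutant (0% of all genes in both). The interaction of the alleles, which asks whether the double het differs from the sum of the single effects, gave 0 members in either tissue and 0% of all genes. With so few genes called anywhere, a count of 0 among 34 members is near the background. At an unadjusted p under 0.05 the counts in cortex were 0, 1, 4, 0, 0 and 0 members in the order given, interaction last, and in hippocampus 3, 1, 1, 4, 1 and 2. The share of all genes at that unadjusted threshold is not given, so these counts carry no result about the members. DESeq2's Wald test also called 0 members in every one of these comparisons.

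The differences between labelled groups that these data allow were small for most members. These limits hold for the groups as labelled and not for the effect of an allele. In 6 animals the Slc25a1 level was opposite to the label. The 95% interval of the log2 difference from WT lay within 1.5-fold in either direction for 31 (Slc25a1 het), 31 (Mrpl40 het) and 29 (double het) of 34 members in cortex, and for 33, 32 and 32 in hippocampus. Wide intervals belonged mainly to the members with few reads (Atf3, Trib3, Stc2, Cebpb) and to Mthfd2 and Chac1. The median log2 difference from WT over the 34 members in cortex was 0.02 for Slc25a1 het, -0.03 for Mrpl40 het and -0.01 for double het, and over all genes it was -0.000429, -0.00196 and -0.0034. In hippocampus the member medians were 0.04, -0.01 and 0.01, and those over all genes 0.00446, -0.00697 and -0.00291.

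**Figure D1:**
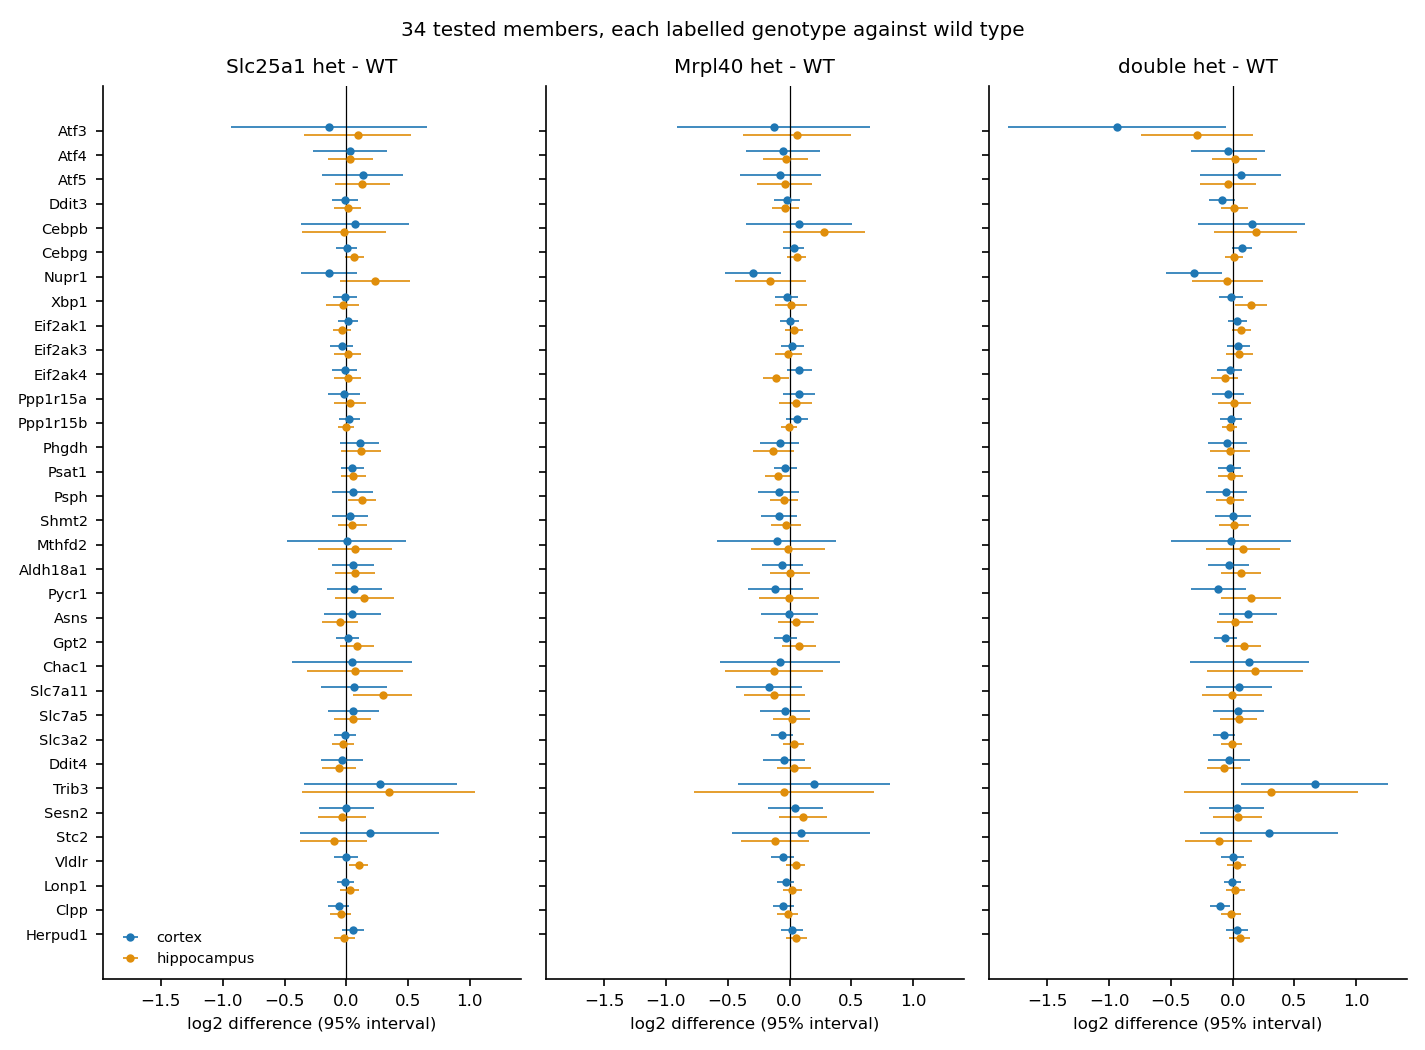
Log2 differences from WT (x axis) with 95% intervals for the 34 tested members (rows) in each labelled genotype, cortex in blue and hippocampus in orange. No adjusted p is under 0.05, and in cortex 31, 31 and 29 intervals lie within 1.5-fold.

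Atf4, the factor the module is named for, had a lowest, median and highest level in cortex of 91.0, 106 and 153 CPM in WT, and 93.9, 135 and 164 CPM in Slc25a1 het. The Mrpl40 het libraries had 99.9, 108 and 153 CPM, and the double het libraries 90.7, 126 and 142 CPM. The 4 groups covered nearly the same span. The log2 difference from WT was 0.03 ± 0.15 (SE; 95% interval -0.27 to 0.33) for Slc25a1 het, -0.06 (-0.36 to 0.25) for Mrpl40 het and -0.04 (-0.34 to 0.26) for double het. In hippocampus Atf4 had 70.3, 78.5 and 90.0 CPM in WT, and 66.8, 81.4 and 98.7 CPM in Slc25a1 het. Mrpl40 het libraries had 70.2, 77.3 and 97.9 CPM there, and double het libraries 66.7, 85.2 and 98.2 CPM. Those groups overlapped too, and the differences from WT were 0.03 ± 0.09 (-0.15 to 0.22), -0.03 (-0.22 to 0.15) and 0.02 (-0.17 to 0.20) on the log2 scale. The interaction of the alleles for Atf4 was -0.02 (-0.46 to 0.42) in cortex and 0.01 (-0.25 to 0.28) in hippocampus.

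Among the transcription factors, the lowest p in a comparison with WT belonged to Nupr1, a small stress-induced chromatin protein, in cortex. Its lowest, median and highest levels were 5.99, 7.27 and 9.08 CPM in WT, 4.43, 6.47 and 7.80 in Mrpl40 het, and 5.03, 6.26 and 7.33 in double het. The ranges overlapped. The log2 difference was -0.29 ± 0.11 (SE; adjusted p = 0.618 by edgeR) in Mrpl40 het and -0.31 ± 0.11 (adjusted p = 0.288) in double het. In Slc25a1 het, with 5.58 to 8.25 CPM, it was -0.14 ± 0.11. In hippocampus, where Nupr1 was lower in general, the Slc25a1 het difference was 0.23 ± 0.14 and the ranges of all 4 genotypes overlapped. Xbp1, which carries the unfolded protein signal of IRE1, had 53.6, 57.1 and 60.1 CPM in WT hippocampus and 51.7, 62.2 and 77.2 in double het. Its log2 difference was 0.15 ± 0.06 (adjusted p = 0.906), and against Slc25a1 het it was 0.18 ± 0.07 (adjusted p = 0.479). Against Mrpl40 het it was 0.14 ± 0.07 (adjusted p = 0.958). Atf3, an immediate stress factor, was close to the detection limit, at 0.252 to 1.71 CPM in WT cortex and 0.154 to 0.645 CPM in double het. The fitted log2 difference of Atf3 in cortex was -0.94 ± 0.43 for double het against WT (95% interval -1.82 to -0.06, adjusted p = 0.415). It was -0.80 ± 0.46 for double het against Slc25a1 het (adjusted p = 0.591) and -0.81 ± 0.45 against Mrpl40 het (adjusted p = 0.748). Cebpg, a partner of ATF4, gave the lowest p of any member in the hippocampal interaction, at -0.11 ± 0.05 (adjusted p = 0.999).

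The eIF2 alpha kinases sense different stresses: Eif2ak1 encodes HRI, known for relaying mitochondrial stress and heme shortage, Eif2ak3 encodes PERK of the ER, and Eif2ak4 encodes GCN2, which senses amino acid shortage. Eif2ak4 had 27.2, 29.5 and 32.4 CPM in WT cortex and 28.6, 30.7 and 34.7 in Mrpl40 het, a log2 difference of 0.08 ± 0.05. In hippocampus it had 27.8, 31.5 and 33.1 CPM in WT and 26.5, 29.9 and 30.8 in Mrpl40 het, a difference of -0.11 ± 0.05 (adjusted p = 0.599). The 2 tissues thus gave Eif2ak4 opposite signs. The tissue difference of that effect was -0.18 ± 0.06 (95% interval -0.31 to -0.06), with an adjusted p of 0.83 by edgeR, so it did not pass. In cortex its double het level differed from Mrpl40 het by -0.10 ± 0.05 (adjusted p = 0.728), and its interaction was -0.09 ± 0.07. Eif2ak1 had 61.5, 66.4 and 70.4 CPM in Slc25a1 het hippocampus and 66.9, 73.1 and 77.1 in double het. That difference was 0.11 ± 0.04 (adjusted p = 0.456), and against WT it was 0.07 ± 0.04 (adjusted p = 0.964). Of the phosphatase subunits that reverse eIF2 alpha phosphorylation, the constitutive Ppp1r15b had the lowest p in the cortical interaction, at -0.10 ± 0.06 (adjusted p = 0.931).

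The amino acid branch showed no member past the threshold. Phgdh, the first enzyme of serine synthesis, had 26.2, 32.5 and 36.9 CPM in WT cortex, 28.4, 35.0 and 38.4 in Slc25a1 het, and 26.4, 31.0 and 37.2 in double het. These ranges overlapped, and the log2 differences were 0.11 ± 0.08 for Slc25a1 het against WT and -0.15 ± 0.08 for double het against Slc25a1 het (adjusted p = 0.558). Psat1, the next enzyme of that pathway, differed between Mrpl40 het and WT hippocampus by -0.09 ± 0.05 (adjusted p = 0.629). Slc7a11, the cystine importer that feeds glutathione synthesis, had 29.0, 38.6 and 50.5 CPM in WT hippocampus and 33.5, 47.9 and 55.4 in Slc25a1 het, a difference of 0.29 ± 0.12 (adjusted p = 0.591). Chac1 differed between double het and Mrpl40 het hippocampus by 0.31 ± 0.20 (adjusted p = 0.958). Gpt2, a mitochondrial alanine aminotransferase, had tissue differences of 0.11 ± 0.07 for the Mrpl40 het effect and 0.14 ± 0.07 for the double het effect, with adjusted p of 0.863 and 0.987.

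Vldlr, a lipoprotein and reelin receptor, had 69.0, 76.6 and 80.4 CPM in WT hippocampus and 77.0, 80.8 and 85.2 in Slc25a1 het. The log2 difference was 0.10 ± 0.04 (adjusted p = 0.571), and the hippocampal interaction for this gene was -0.12 ± 0.06 (adjusted p = 0.999). Clpp, the proteolytic subunit of a mitochondrial matrix protease, had 29.8, 31.1 and 35.7 CPM in WT cortex, 29.2, 30.6 and 32.1 in Slc25a1 het, and 27.7, 30.0 and 31.7 in double het. Its differences were -0.06 ± 0.04 (adjusted p = 1.00) and -0.10 ± 0.04 (adjusted p = 0.332). The other mitochondrial protease, Lonp1, had intervals within 1.2-fold in all 6 comparisons with WT. For the Slc25a1 het effect, the lowest p among the tissue differences belonged to Nupr1 (0.30 ± 0.19) and the ER protein Herpud1 (-0.08 ± 0.06), and for the double het effect to Xbp1 (0.15 ± 0.07), with adjusted p of 0.87, 0.876 and 0.979. In all, the 3 tests of whether a genotype effect differed between the tissues called 0 members, where 0%, 0% and 0.0234% of all genes passed, with 0, 1 and 2 members at an unadjusted p under 0.05. For these unadjusted counts, too, the share of all genes is not given.

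The other genes of the pathway gave the same count. Of 11 further ATF4 targets, 12 cytosolic tRNA synthetases, 20 ER chaperones and unfolded protein response genes, 12 mitochondrial chaperones and proteases, and 11 genes of eIF2, eIF2B and their regulators that were tested, 0 passed in any genotype comparison or tissue difference. The lowest adjusted p was 0.159, for the ER stress sensor Atf6 in double het against WT cortex, a log2 difference of 0.16 ± 0.05. Of the 20 ER genes, 14 were higher in double het than in WT cortex (median 0.07) and 18 in hippocampus (median 0.08), while 0 passed the test in either tissue. These direction counts were not tested against those of all genes, whose medians in the same comparisons are given above.

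Several members varied more between animals of a genotype than between genotypes, and in cortex Atf4, Atf5 and Mthfd2 each showed a gap between 2 ranges. Sorted over all 30 cortex libraries, Atf4 ran from 90.7 to 112 CPM in 16 libraries and from 126 to 164 CPM in the other 14, with no value between. Atf5, an ATF4-induced factor known for the mitochondrial stress response, ran from 14.6 to 18.0 CPM and from 21.0 to 26.8 CPM. Mthfd2, the mitochondrial one-carbon enzyme, ran from 4.08 to 5.95 CPM and from 7.07 to 10.8 CPM. The widest gap with at least 5 libraries on each side took 21.1%, 25.2% and 17.7% of the log2 range of these genes. Every member has such a widest gap, and in cortex Chac1 came next at 15.6% and Atf3 last at 4.52%. The share of all genes with gaps this wide was not computed. The same 14 libraries made up the upper range of all 3 genes. These 14 are picked out by their measured values and are not groups of the study, so no test between them and the rest is given. They came from every genotype: 4 of 9 WT, 4 of 7 Slc25a1 het, 2 of 7 Mrpl40 het and 4 of 7 double het libraries. Within the upper range Atf4 had 134 to 153 CPM in WT libraries, 135 to 164 CPM in those labelled Slc25a1 het, 143 to 153 CPM with the Mrpl40 label and 126 to 142 CPM with both. In the lower range it had 91.0 to 106, 93.9 to 100, 99.9 to 112 and 90.7 to 101 CPM in the same order, and within either range the genotypes overlapped or adjoined.

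**Figure D2:**
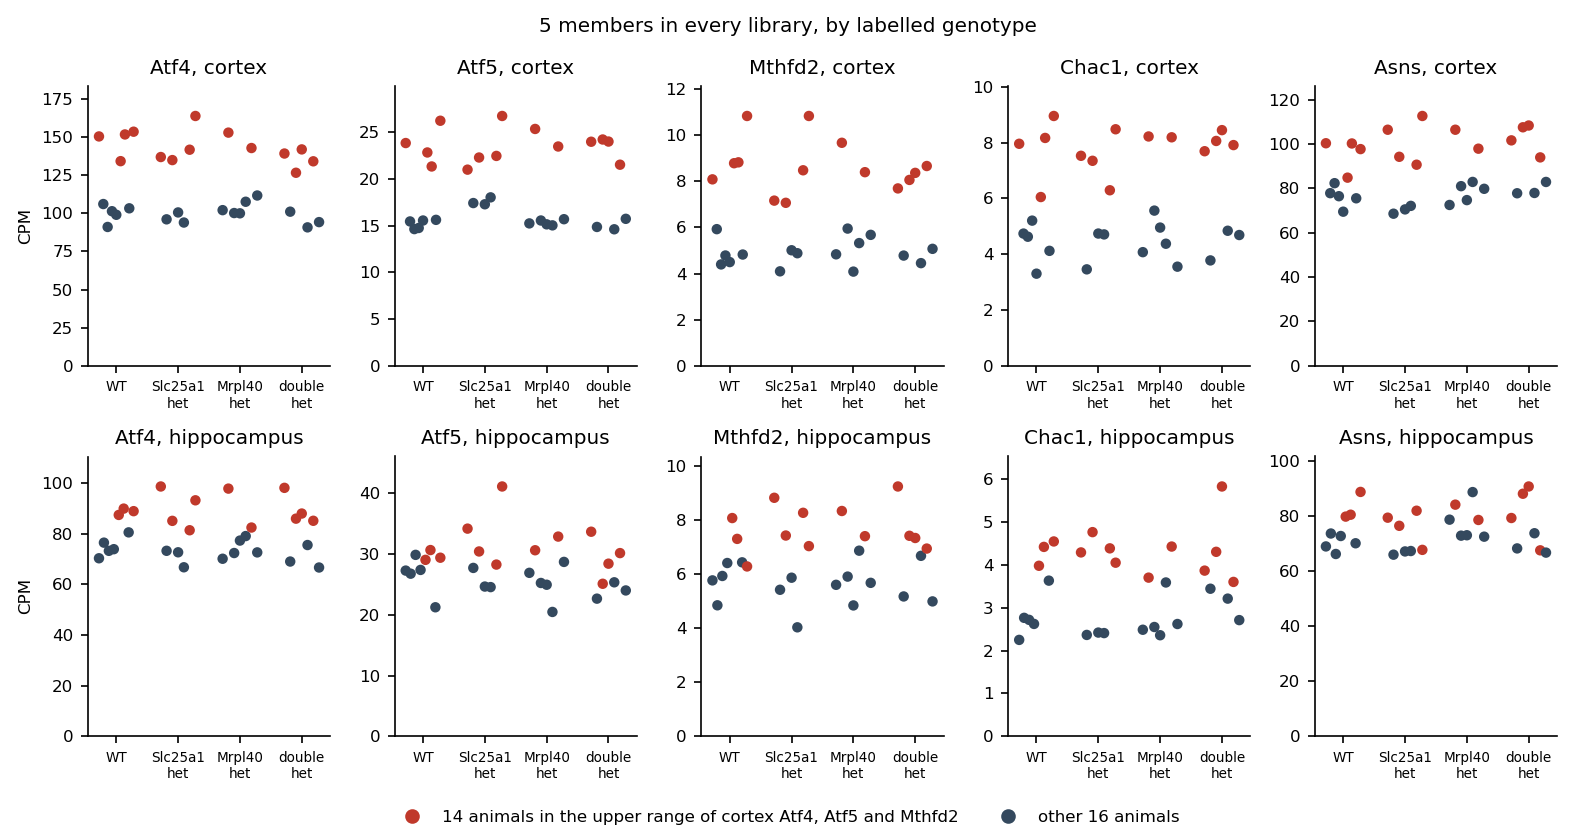
CPM of Atf4, Atf5, Mthfd2, Chac1 and Asns (y axes) in each library by labelled genotype, cortex and hippocampus. Red points are the 14 animals of the upper cortical range of Atf4 (126 to 164 CPM), which occur in every genotype, and dark points are the other 16.

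Asns and Chac1, which did not serve to pick the libraries, had every one of the 14 above all the other 16. Asns ran from 84.9 to 113 CPM in the 14 and from 68.6 to 83.0 CPM in the rest, and Chac1 from 6.05 to 8.95 and from 3.30 to 5.56 CPM. The widest gap of Asns left 13 libraries above it and that of Chac1 12. Stc2, the proline enzyme Aldh18a1, the leucine transporter Slc7a5 and Lonp1 had 13 of the 14 among their 14 highest libraries, and Psph, Shmt2 and Trib3 had 12. Eif2ak4 ran the other way, at 26.6 to 30.3 CPM in the 14 and 28.0 to 34.7 CPM in the rest, with 2 of the 14 among its highest. Ddit3, Nupr1, Xbp1, Ppp1r15a and Ddit4 had 5 to 7 of the 14 among theirs. The share of all genes with such partial counts was not computed, so how unusual they are was not tested. Leaving out Atf4, Atf5 and Mthfd2, which picked the libraries, 2 of 31 members (6.45%) were wholly separated, against 24 of 20391 genes (0.118%). The libraries were picked from members' levels after the data were seen, so these shares describe the split and lend it no independent support. Among the lists, Slc7a3 and Slc1a4 of the 11 further ATF4 targets and Cars1, Nars1 and Yars1 of the 12 tRNA synthetases were separated in the same way. No gene of the lists of ER chaperones, mitochondrial chaperones, eIF2 regulators or immediate early genes was.

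The second tissue was measured in separate libraries of the same animals, which had been picked by their cortical levels. Hippocampal Atf4 ran from 81.4 to 98.7 CPM in the 13 of these animals with a hippocampus library and from 66.7 to 80.6 CPM in the other 16, without overlap, though the margin was narrow. On the authors' normalized counts the hippocampal Atf4 ranges overlapped. Chac1 (3.61 to 5.84 against 2.25 to 3.64 CPM) and Mthfd2 (6.28 to 9.24 against 4.03 to 6.86 CPM) had 12 of the 13 among their 13 highest hippocampi, and Atf5, Asns, Aldh18a1 and Trib3 had 11. Stc2 and Ddit3 had 5 of the 13. For these partial counts, too, the share of all genes was not computed. Of 34 members 1 (2.94%), and of 20162 genes 2 (0.00992%), were wholly separated in hippocampus. Within either set of animals, a member's cortical and hippocampal levels gave 0 of 68 correlations past Benjamini-Hochberg adjustment of permutation p-values. With 13 and 16 animals and levels already divided by range, that count cannot show that the tissues were unrelated.

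**Figure D3:**
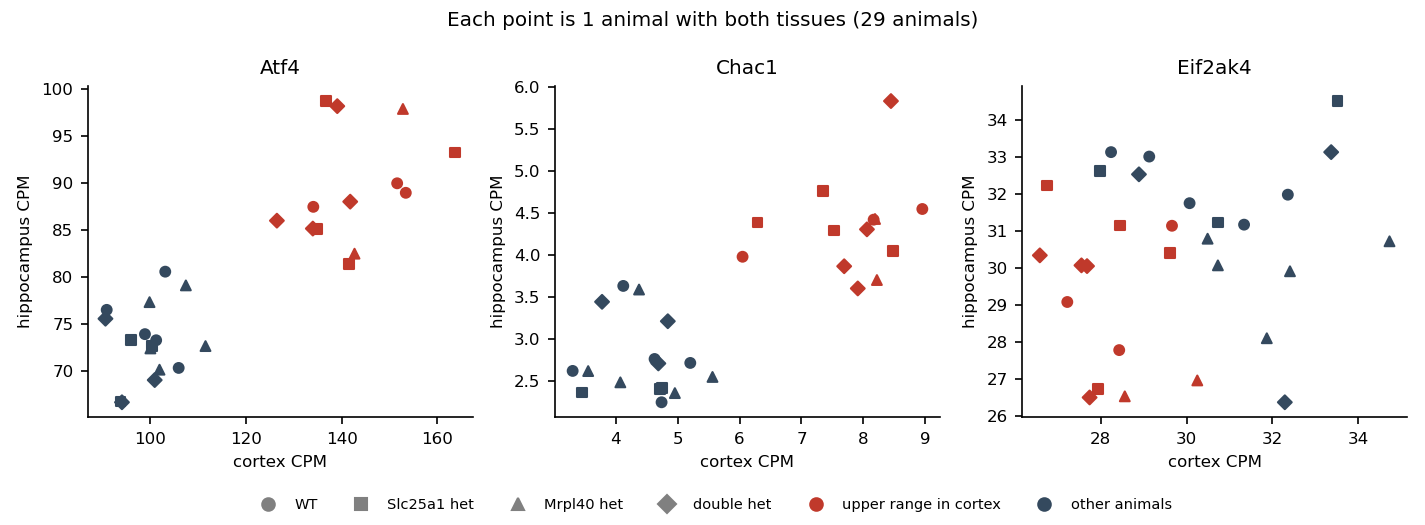
CPM in cortex (x axis) against hippocampus (y axis) of the same 29 animals for Atf4, Chac1 and Eif2ak4. The red animals of the upper cortical Atf4 range lie at 81.4 to 98.7 CPM in hippocampus and the dark ones at 66.7 to 80.6 CPM.

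Other measurements of the 14 cortices were as follows, and their part in the levels was not tested. Total counts ran from 21443017 to 32120906 in the 14 and from 26028656 to 31854093 in the other 16. A low Slc25a1 level was found in 8 of the 14 and in 4 of the 16. Of the 6 animals whose Slc25a1 level went against their label, 4 were among the 14 and 2 among the 16. Wdfy1, whose level splits into 24.3 to 30.2 and 38.8 to 46.0 CPM in cortex, was low in 12 of the 14 and in 8 of the 16, and Ide, which also splits, was low in 5 and in 8. The mean log2 CPM of 12 immediate early genes was 4.83 to 7.04 in the 14 and 4.99 to 7.05 in the rest. Summed markers of neurons (8670 to 10500 against 8850 to 10700 CPM), astrocytes (4460 to 5450 against 4430 to 5090) and microglia (346 to 439 against 323 to 409) overlapped.

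The tissues differed far more than the genotypes. In WT animals with both tissues, with the animal as a block, 26 of 34 members passed edgeR's test, 10 higher and 16 lower in hippocampus, where 60.6% of all genes passed, 30.4% higher and 30.1% lower. Most tested genes thus differed between the tissues too. The median log2 difference was -0.07 over the members and 0.01 over all genes. For 11 of 34 members the 8 WT hippocampi and all 9 WT cortices did not overlap in CPM. The same held for 26.5% of all tested genes. Those counts and the WT levels below use all 9 WT cortices. The WT log2 differences use the 8 animals with both tissues. In bulk tissue, fewer cells of a type and less RNA per cell cannot be told apart.

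Stc2 had the largest difference, with a lowest, median and highest level of 5.29, 9.27 and 10.4 CPM in WT hippocampus and 1.10, 1.39 and 2.96 CPM in WT cortex. The log2 difference was 2.43 ± 0.24 (SE; 5.41-fold, adjusted p = 6.53e-10). Ddit4, an mTORC1 inhibitor induced by stress and glucocorticoids, had 46.3, 56.6 and 60.1 CPM against 20.1, 22.7 and 27.1 CPM. It rose by 1.22 ± 0.05 (2.33-fold, adjusted p = 1.05e-20). Both genes were higher in hippocampus in all 29 animals. Cebpb, a C/EBP factor, had 0.673, 2.04 and 2.50 CPM against 0.440, 0.801 and 1.16 CPM, a difference of 1.26 ± 0.19 (adjusted p = 7.11e-07). Phgdh had 47.8, 52.3 and 53.7 CPM against 26.2, 32.5 and 36.9 CPM, a difference of 0.65 ± 0.06 (adjusted p = 2.92e-11). Atf5 had 21.2, 28.2 and 30.7 CPM against 14.7, 15.6 and 26.3 CPM, a difference of 0.61 ± 0.08 (adjusted p = 4.49e-08). Stc2, Ddit4 and Phgdh did not overlap between the WT tissues, while Cebpb and Atf5 did.

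Atf4 itself fell in hippocampus, with 70.3, 78.5 and 90.0 CPM against 91.0, 106 and 153 CPM in cortex. The log2 difference was -0.54 ± 0.05 (0.69-fold, adjusted p = 2.11e-10), and it was lower in 29 of 29 animals. Nupr1 had 3.33, 3.66 and 4.15 CPM against 5.99, 7.27 and 9.08 CPM, and fell by 1.01 ± 0.13 (adjusted p = 4.24e-08). Chac1 had 2.25, 3.20 and 4.55 CPM against 3.30, 5.20 and 8.95 CPM, and fell by 0.72 ± 0.11 (adjusted p = 4.65e-07). Of these, Atf4 and Nupr1 did not overlap between the WT tissues. Xbp1 had 53.6, 57.1 and 60.1 CPM against 75.0, 81.6 and 87.4 CPM, and fell by 0.53 ± 0.05 (adjusted p = 4.5e-12). Herpud1, an ER membrane protein of the degradation machinery, had 33.0, 35.0 and 37.7 CPM against 44.8, 49.8 and 56.8 CPM, and fell by 0.49 ± 0.04 (adjusted p = 3.33e-13). Both were lower in all 29 animals.

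By role, the 8 transcription factors divided into 2 that rose (Atf5, Cebpb), 5 that fell (Atf4, Ddit3, Cebpg, Nupr1, Xbp1) and Atf3, which did not pass. Of the kinases, the ER sensor Eif2ak3 (-0.37) and Eif2ak1 (-0.10) fell, while Eif2ak4 (0.07) did not pass. Both phosphatase subunits fell, the stress-induced Ppp1r15a by 0.35 and Ppp1r15b by 0.08. Of the 7 enzymes of serine, one-carbon and proline synthesis, 4 rose (Phgdh, Psat1 at 0.18, Psph at 0.46 and Shmt2 at 0.19). The proline enzymes Aldh18a1 and Pycr1 fell, each by 0.26, and Mthfd2 (0.00) did not pass. Gpt2 rose (0.17) while Asns (-0.14) and Chac1 fell, and of the transporters Slc3a2 (-0.14) fell while Slc7a5 and Slc7a11 did not pass. The mTORC1 inhibitors Ddit4 and Sesn2 (0.33) rose and Trib3 did not pass. Vldlr and Clpp did not pass, and Lonp1 fell slightly (-0.08). Beside these counts by role, 30.4% of all tested genes rose and 30.1% fell.

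**Figure D4:**
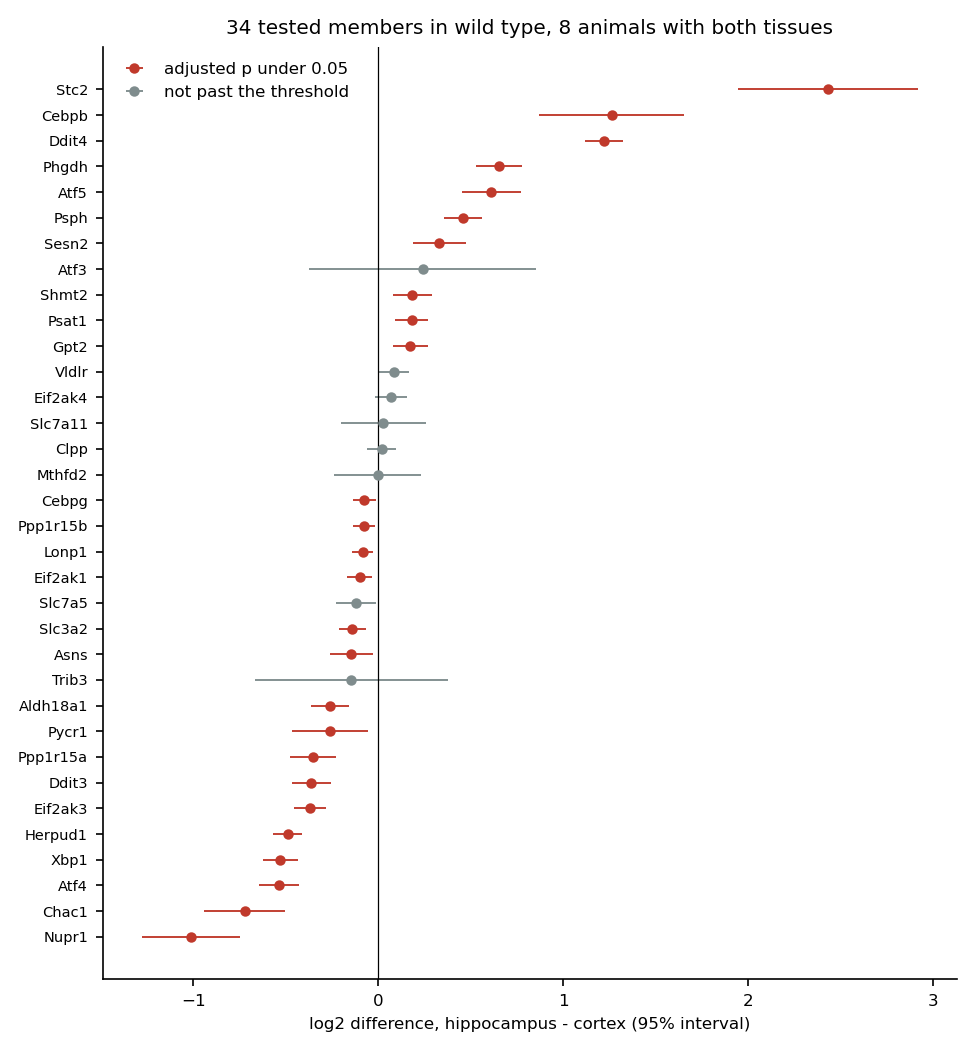
Log2 difference, hippocampus minus cortex (x axis), with 95% intervals for the 34 tested members (rows) in the 8 WT animals with both tissues. Red marks the 26 members with an adjusted p under 0.05, from Stc2 (2.43) to Nupr1 (-1.01).

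The other genotypes showed tissue differences in similar numbers. Read from the same fit, 25 members passed in Slc25a1 het animals (60.4% of all genes), 22 in Mrpl40 het (60.3%) and 26 in double het (57.5%). The Atf4 difference was -0.59, -0.56 and -0.54 in these groups.

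Related lists are given next for the same test, in which 30.4% of all genes were called higher and 30.1% lower in hippocampus. Of 11 further ATF4 targets, 7 fell in WT hippocampus (median of the list -0.33), namely the translation inhibitor Eif4ebp1 (-1.14), the transporters Slc7a3 (-0.78), Slc6a9 (-0.54), Slc7a1 (-0.39), Slc38a2 (-0.33) and Slc1a4 (-0.23), and the leucine zipper gene Jdp2 (-0.75). Aldh1l2 (0.38), Cth (0.28) and Pck2 (0.14) rose. Of 12 tRNA synthetases 7 fell, led by Cars1 (-0.51) and Sars1 (-0.40), and 3 rose. The 20 ER genes split into 6 that rose, led by Atf6b (0.59), and 6 that fell, led by Edem1 (-0.39). Of 12 mitochondrial chaperones and proteases 7 rose, among them Yme1l1 (0.36) and Hspe1 (0.34), and 4 fell, among them Spg7 (-0.24). The 11 eIF2 genes gave 3 in each direction, with the GCN2 inhibitor Impact at -0.38.

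Cell type markers and activity genes differed between the tissues too, and their part in the members' differences was not tested. Of all genes, 30.4% rose and 30.1% fell in that comparison. All 12 immediate early genes fell in WT hippocampus (median -2.59), and their summed level was 788 to 2970 CPM over the 30 cortices and 213 to 469 CPM over the 29 hippocampi. Neuron markers fell in 7 of 10 genes, with sums of 8670 to 10700 and 5340 to 9540 CPM. Astrocyte markers rose in 5 of 10 and fell in 1, with sums of 4430 to 5450 and 4760 to 7070 CPM. Choroid plexus markers rose in 2 of 6 tested, with sums of 3.35 to 14.6 and 20.4 to 98.2 CPM. Of these lists, 0 genes were at 0 in every library.

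Immediate early genes such as Fos are induced within minutes by neuronal activity and by handling. Their mean log2 level was compared with each member across libraries, after the genotype mean was removed, in 68 relations. In cortex 3 of 34 members passed when adjusted over those relations, and 1 of 34, Ppp1r15a, passed when adjusted over all 20382 tested genes outside that mean, where 0.864% of genes passed. Ppp1r15a had a Pearson r of 0.616 (permutation p = 0.00029, adjusted over all genes 0.0384) and a Spearman rho of 0.683 (permutation p = 5e-05). Ddit3, the pro-apoptotic factor CHOP, had r = 0.597 (permutation p = 0.00056, adjusted over all genes 0.0594) and rho = 0.604 (permutation p = 0.00054). Atf3 had r = 0.579 (permutation p = 0.00067, adjusted over all genes 0.0653) and rho = 0.646 (permutation p = 0.0002). Without the 2 libraries farthest from the median of the immediate early mean, r was 0.554, 0.551 and 0.545. Cebpb, itself inducible by activity, had r = 0.321. The promoter window of Ppp1r15a holds the cAMP response element printed above, while those of Ddit3 and Atf3 hold no exact match to TGACGTCA. The Atf3 window does hold the close run TTACGTCA, which the search did not count. Whether the element has a part in these relations was not tested. In hippocampus 0 of 34 members and 0% of all 20150 genes passed when adjusted over all genes. Cebpg came nearest, with r = 0.587 (permutation p = 0.00081, adjusted over all genes 0.199) and rho = 0.536 (permutation p = 0.0034). It passed when adjusted over the members' 68 relations alone, and that call was lost without the 2 farthest libraries (r = 0.451), without removal of the genotype mean (0.488) and with length and GC trends removed (0.485). Ppp1r15a, Ddit3 and Atf3 had r of -0.0882, 0.211 and 0.322 in hippocampus, and the difference between tissues was not tested.

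**Figure D5:**
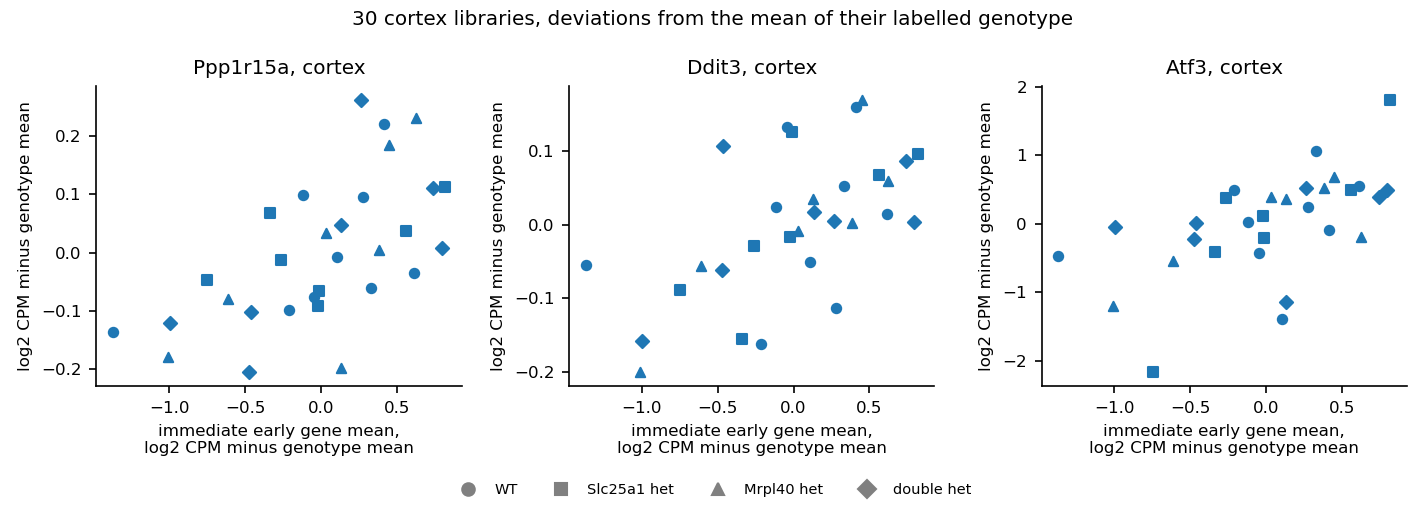
Deviation from the genotype mean of a member (y axis, log2 CPM) against that of the mean of 12 immediate early genes (x axis, log2 CPM) in the 30 cortex libraries, 1 point per library, with marker shapes for the labelled genotypes. Ppp1r15a, Ddit3 and Atf3 were higher where the mean was higher (r = 0.616, 0.597 and 0.579).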

How the data were processed

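RNA-seq counts per gene were used as deposited. Per the submitters' processing notes, the authors used FastQC, HISAT2, featureCounts and DESeq2 with builds mm39 and GRCm39; those notes name no version or annotation, and how reads of near-identical copies were counted is not given in the sources. Kits were directional, per the labels' protocols. The authors' normalized counts, a signal equal to the deposited count divided by 1 factor per library, served as an alternative. Members and gene lists were chosen with earlier results of these data known. Counts were fitted with edgeR 4.0.16 (R 4.3.3) after TMM scaling and its filter on low counts, over 20394 genes in cortex and 20162 in hippocampus, with 1 term per genotype. Tissues were compared over 21354 genes with the animal, named by the labels' animal number, as a block (29 animals with both tissues). P-values were Benjamini-Hochberg adjusted over all genes tested. CPM is scaled by TMM library size; log2 CPM has a prior count of 2. Genes named were Atf4, the 2 members with the lowest p in each comparison, and the 5 largest rises and falls between the tissues among those that passed; other names illustrate a role. Correlations used 100000 permutations of libraries (scipy 1.17.1). Alternatives used DESeq2 1.42.0 and limma 3.58.1. Lengths came from GENCODE vM21. Fits were tested on simulated data. The 37 mitochondrially encoded rows were 0 throughout and were not used.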

Additional observations from a re-analysis of the deposited data

Results flagged for a closer look

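In 6 of 160 combinations of a member and a group of 4 to 10 libraries, 1 library lay far from the others of its group by Dixon's criterion, which by chance marks about 5% of groups. Atf3 was highest in cortex Slc25a1 het replicate 7, at 2.28 CPM, where the others had 0.0752 to 0.867 CPM. Atf5 was lowest in hippocampus WT replicate 8, at 21.2 CPM, against 26.8 to 30.7 CPM. Cebpb was lowest in hippocampus Slc25a1 het replicate 3, the library with high cerebellar markers, at 1.54 CPM against 1.84 to 2.04 CPM. Phgdh was highest in hippocampus Slc25a1 het replicate 7, at 72.4 CPM against 50.7 to 54.9 CPM. Gpt2 was highest in hippocampus double het replicate 5, at 94.8 CPM against 59.9 to 73.1 CPM. Herpud1 was highest in hippocampus Mrpl40 het replicate 5, at 40.9 CPM against 35.1 to 36.7 CPM. The causes were not tested.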

How the results depend on the processing

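In the 15 comparisons of genotypes and of tissue differences, 121 alternatives were run (another scaling, filter, tool or set of libraries, the length and GC trends, and the replicate block), and 0 members were called in each of the 121. The labels give genotypes the same replicate numbers, but animals of different genotypes share only a number; with the replicate block 0 members were called in all 12 genotype comparisons. Atf4 was never called in them, and its log2 difference changed sign in 8 cases. Without the 6 animals against their label it was 0.0222 in Mrpl40 het and 0.0658 in double het against WT in cortex, 0.0212 in Mrpl40 het in hippocampus, and -0.0532 in the hippocampal interaction. With length and GC trends as offsets the interaction was 0.000202 in cortex and -0.000786 in hippocampus. The tissue difference of the double het effect was 0.000407 without the filter on low counts and 0.00871 without the animal block. Between the WT tissues, 21 to 26 members were called under the alternatives, where 29% to 60.9% of all genes were called, the lowest of both without the filter on low counts. With each WT animal left out, 22 to 27 members and 57.9% to 60.2% of all genes were called. In hippocampus, 0 members followed the immediate early genes without removal of the genotype mean, without the 2 farthest libraries, or with length and GC trends removed, where the r of Cebpg was 0.488, 0.451 and 0.485. In cortex 3 to 4 followed them under those alternatives. Adjusted over all genes in place of the members, 1 member followed them in cortex and 0 in hippocampus. The 14 cortices with high Atf4 lay wholly above the rest for 5 members on log2 CPM, on the authors' normalized counts, and with length and GC trends removed, where Slc7a5 took the place of Asns; that description, the leave-one-out fits the length and GC removal from correlations and the adjustment over all genes were added after the data were seen. Members with few reads (Atf3, Trib3, Cebpb, Stc2) were among those with the widest intervals, so small differences in them could not be detected. Why the intervals were wide was not tested.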

Other observations

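Across the 14 cortices of the upper Atf4 range and across the other 16, the level of Atf4 was also set beside each of the other 33 members, so that the gap between the ranges plays no part. Signs were positive for 26 members in the 14 and for 19 in the 16 cortices, and for 16 and 17 members in the hippocampi of the same animals. After Benjamini-Hochberg adjustment over these 132 relations, 0 passed. Slc3a2 in the 14 cortices came nearest, with r = 0.766 (permutation p = 0.0015, adjusted p = 0.198), rho = 0.701 (adjusted p = 0.151) and r = 0.605 without the 2 farthest libraries.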
